A study of Mus musculus with 9 samples.

Results

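Mouse LSK cells that carried DNMT3A R882H were compared with both control groups as one, on the raw scanner values of 9 arrays. The 3 R882H arrays formed one pool, and the 3 empty vector and 3 wild-type DNMT3A arrays formed the other, with the replicate number in the labels as a block. A gene was examined in detail when its 3 R882H values all lay above the highest, or all below the lowest, of the 6 control values. Of 12844 genes tested, 347 met this rule on the higher side and 405 on the lower side, which makes 752 in all. The remaining genes overlapped the control range.

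LSK cells are the bone marrow fraction that lacks lineage antigens and carries Sca-1 and Kit, and they include haematopoietic stem cells and multipotent progenitors. DNMT3A is an enzyme that places new methyl groups on cytosines of CG pairs, and its loss in mice lets stem cells renew at the expense of differentiation. R882H, its most frequent mutation in blood cancers of the myeloid lineage and in clonal haematopoiesis, lowers the activity of the enzyme. Pooling vector cells with cells given the wild-type enzyme asks which transcripts set the mutant apart from both at once.

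The R882H group held cells transduced with DNMT3A R882H, the wild-type group cells transduced with DNMT3A wild-type, and the vector group cells given the empty vector. All 3 groups shared the C57BL/6 background, a GFP-labelled vector, passage through transplanted mice and sorting of LSK cells before lysis. The added gene was driven by a vector, and the labels name no change to the cells' own Dnmt3a. Ages and the time after transplantation are not stated in the labels. Nor do they say whether replicates came from separate mice, so the p-values measure a spread between samples that may be technical. In sorted bulk cells, fewer cells of a type and less RNA per cell cannot be told apart. RNA input was 3.67 ng per sample before amplification, hybridisation used 1 colour, and precision is limited by how few arrays there are.

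Several facts about the arrays touch the results below. Of 55681 probes, 60.8% ± 3.66 (SD, n = 3) were well above background on R882H arrays and 57.8% ± 3.78 (SD, n = 6) on control arrays, a difference of 3.02 percentage points (two-sided exact permutation test, p = 0.262, smallest possible 0.0238). Slide 1 held the 3 empty vector arrays and wild-type replicate 1, slide 2 held wild-type replicates 2 and 3 with R882H replicates 1 and 2, and slide 3 held R882H replicate 3 alone. The first principal component (30.5% of variance) set empty vector replicate 3, at 52.3, and wild-type replicate 3, at 33.2, apart from the other 7 arrays at -28.8 to 7.65. The LSK label fitted its positive markers, since each of the 9 arrays detected Kit, Ly6a (which encodes Sca-1), Cd34, Flt3 and Ptprc well above background. Of lineage antigens, Cd8a was so on 0 arrays and Il7r on 8, while Cd3e, Cd4 and the best of 3 Itgam probes were so on all 9. The deposited value table carried different names for the same arrays: 2 of its 9 columns held their own sample, 7 held another sample and 4 of those another group. Group membership is taken here from the labelled scanner output, and the files do not settle which of these sources carries the wrong names. With the columns of that table as named, 207 genes lay outside the control range and 1 of them was among the 752.

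No gene passed the adjusted threshold of 0.05 with limma, whose smallest adjusted p of 0.146 was shared by 28 genes; 0.00% of the 12844 genes were called. At an unadjusted p under 0.05 stood 749 genes on the higher side (5.83%) and 903 on the lower side (7.03%). The genes outside the control range were 2.70% of those tested on the higher side and 3.15% on the lower side. A gene is therefore given below as higher or lower by its values, and none of these differences passed after adjustment. Scaling changed the split between directions. With each array's median in place of its 75th percentile, 134 genes lay above the controls and 813 below, the higher share was 14.1% in place of 46.1%, and the median difference of all genes was -0.14 in place of -0.013.

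Higher and lower genes differed in their signal. Genes above all controls had a median log2 signal of -0.52 (each array's 75th percentile being 0), against 2.09 for genes below all controls and 0.31 for all genes tested. In the dimmest of 5 equal bins of signal the median difference was 0.19, with 108 genes above the controls and 16 below. The filter itself favoured dim higher genes, since 1097 tested genes passed through the R882H arrays alone and 86 through the control arrays alone. With only genes detected on all 9 arrays, the dimmest bin had a median of 0.09, with 32 above and 12 below. In the brightest bin it was -0.09, with 58 above and 179 below. Of the 347 higher genes 268 were well above background on all 9 arrays and 79 passed the filter through the R882H arrays alone, 12 of which were not well above background on any control array. Of the 405 lower genes 401 were well above background on all 9 arrays and 4 passed through the control arrays alone. Among genes detected on all 9 arrays, 17 of the higher and 11 of the lower ones differed by at least 2-fold.

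**Figure D1:**
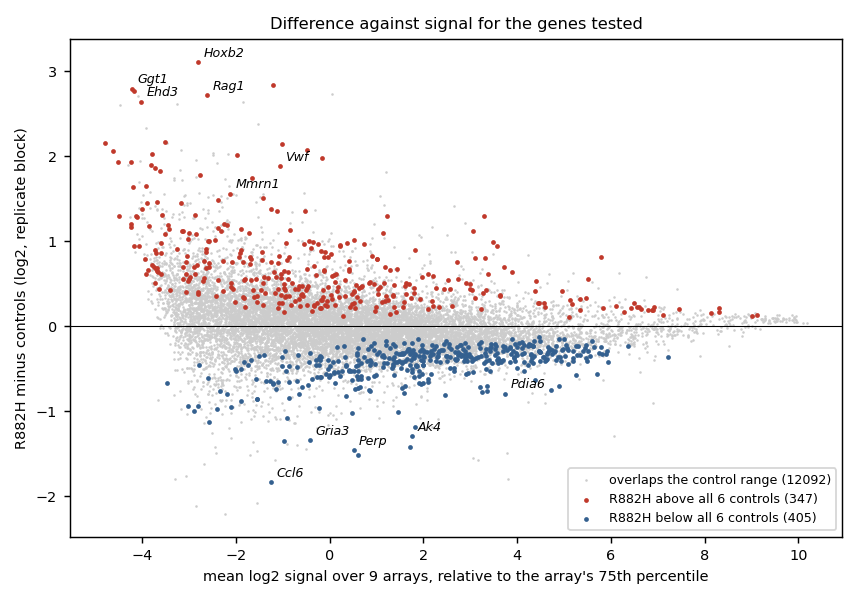
Difference of R882H from the pooled controls (log2, replicate block) against mean log2 signal over the 9 arrays, 1 point per gene. Red points are the 347 genes with R882H above all 6 controls, blue points the 405 below, and grey points the genes that overlapped. Red points gather among dim genes with large differences, and blue points among bright genes with small ones; for 12 red genes no control array was well above background.

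The margin between the groups was small for most of these genes. The gap, the distance from the nearest R882H array to the nearest control array, had a median of 0.08 log2 units among higher genes and 0.06 among lower ones. Just outside the range stood Plgrkt, Mob3c and Slc6a2, with gaps of 0.000294, 0.00048 and 0.000567. Just inside it stood Ran, Ccdc78 and Alg6, with gaps of -0.000138, -0.000392 and -0.000414. R882H replicate 3 was the R882H array nearest to the controls for 144 of the higher and 214 of the lower genes, more than either other R882H array. Among the 6 controls, wild-type replicate 3 was the nearest for 78 of the higher genes and empty vector replicate 1 for 105 of the lower genes. Without R882H replicate 3 the count outside the range was 2064 in place of 752.

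Genes of platelets and their precursors led the higher side. Mmrn1, which encodes multimerin 1, a factor V binding protein of platelet granules, had the smallest p. It read -1.09, -0.43 and -1.73 on the R882H arrays, against -1.97, -2.05 and -3.70 with empty vector and -2.39, -2.31 and -3.44 with wild-type DNMT3A (log2 signal minus the 75th percentile of that array, as for all levels below). Every R882H value exceeded every control value, replicate 3 was the lowest of each group, and the probe was well above background on 4 of 6 control arrays. The difference was 1.56 ± 0.19 (SE) log2 units, 2.95-fold, with a limma p of 3.27e-05 and an adjusted p of 0.146. Rab27b, a small GTPase of granule secretion, was the most even of the leading genes. It read 1.35, 1.43 and 1.37 with R882H, against 0.31, 0.64 and 0.21 with empty vector and 0.22, 0.73 and 0.38 with wild-type DNMT3A. The 3 R882H values lay within a narrow band, 0.62 log2 units clear of the nearest control, and both detected probes lay outside the range. Its difference was 0.97 ± 0.12, with a limma adjusted p of 0.146.

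F2r, the thrombin receptor PAR1, read 3.75, 3.67 and 4.02 with R882H, against 2.70, 3.05 and 2.58 with empty vector and 2.6, 3.10 and 2.12 with wild-type DNMT3A. The groups were 0.56 log2 units apart, and R882H replicate 3 was here the highest of all arrays (difference 1.12 ± 0.21, limma adjusted p 0.16). Vwf, the platelet and endothelial ligand von Willebrand factor, read 0.46, 0.53 and -0.43 with R882H, against -0.57, -0.96 and -1.96 with empty vector and -1.54, -1.5 and -3.62 with wild-type DNMT3A. It was lowest in replicate 3 of every group, and its nearest margin was 0.14 (difference 1.88 ± 0.39, limma adjusted p 0.206). The integrin beta chain gene Itgb3 stood at 0.62 ± 0.22 and Mrvi1, a target of cGMP signalling in platelets, stood at least 1.38-fold higher, no control array having measured it well above background. Such a bound divides the R882H mean by a control mean in which each array contributes its detection floor (its lowest signal well above background) or the probe's own signal, if larger. The floor is taken over all probes of the array, and the bound belongs to the main processing.

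Rab27b, F2r, Vwf, Itgb3 and Mrvi1 were the members of the megakaryocyte list outside the control range. Of its 18 tested members 5 lay above all controls (27.8%, against 2.70% of all genes) and 0 below, 17 were higher, and the median difference was 0.81 against -0.013 for all genes. Vwf and Mrvi1 passed the filter through the R882H arrays alone. The 14 members detected on all 9 arrays were all higher, with 3 above all controls and a median of 0.75. The summed list score, the mean deviation of its members on an array, was 0.62, 0.65 and 0.28 with R882H, against -0.16, -0.06 and -0.61 with empty vector and -0.09, 0.10 and -0.73 with wild-type DNMT3A. No control reached the lowest R882H array, also over the 14 members alone, and replicate 3 was the lowest in each group. On slide 2 alone the megakaryocyte median was 0.71, without number 3 in any group it was 0.76, and 4 members lay above all controls with a median of 0.44 after normexp background correction. The red cell list, the neighbouring lineage, had 12 of 14 tested members higher with a median of 0.74, so higher values were not particular to megakaryocyte genes. It had 0 members outside the range in either direction, and its score on empty vector replicate 1 (0.75) was the highest of all 9 arrays. Gata1, which drives both lineages, read 3.43, 3.23 and 2.87 with R882H, against 2.78, 2.10 and 1.18 with empty vector and 2.53, 3.01 and 2.25 with wild-type DNMT3A. R882H replicate 3 lay below wild-type replicate 2, so the groups overlapped (difference 0.87 ± 0.28, limma adjusted p 0.3).

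**Figure D2:**
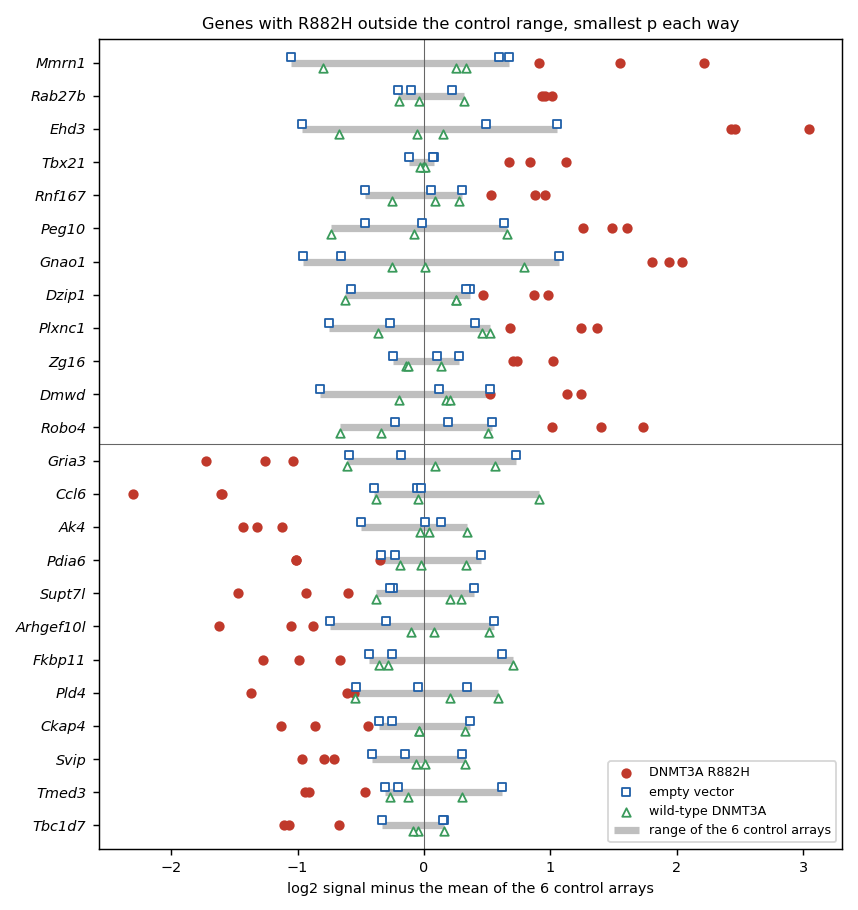
Values of the 12 genes with the smallest p in each direction, as log2 signal minus the mean of the 6 controls. Filled red circles are the R882H arrays, open squares empty vector, open triangles wild-type DNMT3A, and grey bars the range of the 6 controls, none of which was well above background for Ehd3 and Gnao1. The nearest R882H array almost touched the control range for Dmwd, Pdia6 and Pld4, with gaps of 0.0028, 0.0030 and 0.0049.

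Stem cell genes formed the next group. Robo4, a guidance receptor of endothelium and stem cells, read 0.03, -0.29 and -0.69 with R882H, against -1.51, -1.16 and -1.93 with empty vector and -1.19, -2.37 and -2.04 with wild-type DNMT3A. The R882H values were 0.48 log2 units clear of the controls, for a difference of 1.38 ± 0.25 (limma adjusted p 0.155). Gata2, a transcription factor needed to keep stem cells, read 4.24, 4.13 and 4.19 with R882H, against 3.96, 3.64 and 3.07 with empty vector and 3.57, 3.58 and 3.08 with wild-type DNMT3A. Its R882H arrays were almost equal, while replicate 3 of both control groups was the lowest (difference 0.70 ± 0.16, limma adjusted p 0.244). Tgm2, a transglutaminase, read 1.13, 0.99 and 0.99 with R882H, against control values whose lowest, median and highest were -1.03, 0.30 and 0.67.

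With Vwf, these were among the 5 of 30 tested stem cell genes (16.7%, against 2.70% of all genes) outside the control range, all on the higher side. In all 29 of 30 members were higher, and the median was 0.70. At an unadjusted limma p under 0.05 stood 14 of the 30 on the higher side, against 5.83% of all genes. Of the 30 members 8 passed the filter through the R882H arrays alone, and the 22 on all 9 arrays had a median of 0.68 with 4 above all controls. With normexp the stem cell median was 0.42. The stem cell score was 0.66, 0.62 and 0.25 with R882H, against -0.08, 0.27 and -0.83 with empty vector and -0.08, 0.00067 and -0.81 with wild-type DNMT3A. Empty vector replicate 2 lay just above R882H replicate 3, so the scores overlapped, and replicate 3 of both control groups was far below the rest. Over the 22 members the lowest R882H score was 0.23 and the highest control score 0.22. Without number 3 in any group the stem cell median was 0.60, and with the deposited value table as named it was 0.05. Of the surface markers, Procr (the endothelial protein C receptor) differed by 0.69 ± 0.30, Slamf1 (CD150) by 1.11 ± 0.66 with 3 of 6 control arrays well above background, Ly6a by 0.41 ± 0.24 and Kit by 0.19 ± 0.14, and all overlapped the control range.

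Hox genes, known from body patterning and from self-renewing blood cells, held 4 members outside the range. Hoxb2 read -0.83, -0.75 and -0.60 with R882H, against -2.37, -4.50 and -4.58 with empty vector and -5.74, -1.36 and -4.47 with wild-type DNMT3A. The R882H arrays were close together while the controls ran from -5.74 to -1.36, and 2 of 6 control arrays were well above background. Its difference of 3.11 thus came with an SE of 0.86 and a limma adjusted p of 0.275. Hoxa2 stood at 2.02 ± 0.60, with its R882H value on replicate 3 (-0.72) far above those on replicates 1 and 2 (-3.36 and -3.24), and 1 control array well above background. The cofactor gene Pbx3 stood at 0.90 ± 0.31, and 4 of 19 tested members (21.1%, against 2.70% of all genes) lay above all controls. Hoxb2 and Hoxa2 passed the filter through the R882H arrays alone, and 2 of the 16 members detected on all 9 arrays lay above all controls. The Hox median was 0.36, with 15 of 19 higher, and on those 16 members it was 0.29. It was 0.58 on slide 2, 0.22 with normexp, 0.23 with the array median, 0.09 without a filter on dim probes and 0.24 without empty vector replicate 3. Hox scores were 0.47, 0.33 and 0.33 with R882H and at most 0.09 on any control array, but over the 16 members the lowest R882H score (0.06) lay below 2 of the control scores (0.25 and 0.15). Meis1, Hoxb4 and Hoxa9, the members best known from leukaemia, overlapped the controls at 0.67 ± 0.25, 0.36 ± 0.19 and 0.28 ± 0.50. The Hoxa9 value was -0.04 without empty vector replicate 3.

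Early B cell genes were higher on the R882H arrays. Rag1, the recombinase of antigen receptor genes, read -0.93, -0.22 and -1.26 with R882H, against -3.50, -2.59 and -6.07 with empty vector and -2.33, -3.95 and -2.72 with wild-type DNMT3A. The groups were 1.07 log2 units apart by this probe, and 1 of 2 detected probes lay outside the range (difference 2.72 ± 0.71, limma adjusted p 0.255). Vpreb2, of the surrogate light chain, read -1.18, -0.70 and -0.01 with R882H, against -2.46, -2.59 and -3.63 with empty vector and -2.88, -2.94 and -1.35 with wild-type DNMT3A. Wild-type replicate 3 came within 0.16 of the lowest R882H array. Blnk, an adaptor of the B cell receptor, differed by 1.12 ± 0.33. Each of the 3 genes was well above background on 5 of 6 control arrays. The 3 made up 20.0% of 15 tested B lineage genes (against 2.70% of all genes), with 13 of 15 higher and a median of 1.12. Of the 15 members 7 passed through the R882H arrays alone, and the 8 detected on all 9 arrays had a B lineage median of 0.21 with 0 outside the range. The B lineage median over all 15 was 0.64 without R882H replicate 3, 0.59 on slide 2 and 0.52 with normexp. Over the 8 members the scores overlapped, at 0.37, 0.22 and 0.48 with R882H and up to 0.25 among controls.

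Genes from other tissues and lineages were among the largest differences. Ehd3, an ATPase of endocytic recycling, read -1.86, -2.48 and -2.44 with R882H, against -3.85, -4.41 and -5.87 with empty vector and -4.96, -5.57 and -4.76 with wild-type DNMT3A. No control array measured it well above background, and on these values it was at least 2.88-fold higher. Gnao1, the G protein subunit abundant in brain, was likewise dim on all control arrays and at least 1.77-fold higher. These bounds belong to the main processing. With normexp the 12 higher genes of smallest p, Ehd3 and Gnao1 among them, differed by 0.26 to 0.98 log2 units. Ggt1, a gamma-glutamyltransferase, read -2.89, -1.90 and -2.27 with R882H, against -3.67, -4.25 and -4.94 with empty vector and -5.54, -6.53 and -5.95 with wild-type DNMT3A. Of its control arrays 1 of 6 was well above background. Gimap4, a GTPase of lymphocytes, was detected on all 9 arrays and read 1.65, 0.89 and 0.90 with R882H, against 0.24, 0.15 and -0.89 with empty vector and -2.18, -2.02 and -0.28 with wild-type DNMT3A. Tbx21, the transcription factor T-bet, had close controls: it read -0.61, -1.06 and -0.89 with R882H, against control values between -1.85 and -1.65 (difference 0.88 ± 0.14, limma adjusted p 0.146).

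Further genes with small p on the higher side had less in common by known role. Rnf167, a ubiquitin ligase of endosomes, differed by 0.79 ± 0.13, and Plxnc1, a semaphorin receptor, by 1.1 ± 0.19, each with 1 of 2 probes outside the range. Peg10, an imprinted gene of retroviral origin, read -2.17, -2.40 and -2.06 with R882H, against -3.03, -3.67 and -4.13 with empty vector and -3.0, -4.39 and -3.74 with wild-type DNMT3A. Its R882H values were 0.60 log2 units clear of the controls, of which 2 were well above background (difference 1.45 ± 0.24, limma adjusted p 0.146). It was the only imprinted gene above all controls among 20 tested (5%, against 2.70% of all genes). Mcts2 alone lay below them, at -0.27 ± 0.11 (5%, against 3.15% of all genes). Of the 20 imprinted genes 15 were higher, with a median of 0.26. The lowest R882H score of the imprinted list, 0.089, lay just above the highest control score, 0.088. Of the 20 members 4, Peg10 among them, passed the filter through the R882H arrays alone. The 16 detected on all 9 arrays had 11 higher, a median of 0.16 and 0 above all controls. Zg16, a lectin of secretory granules, differed by 0.82 ± 0.14, the zinc finger gene Dzip1 of cilium assembly by 0.77 ± 0.13 and Dmwd by 0.97 ± 0.17, the last with a gap of only 0.0028.

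On the lower side Ccl6, a chemokine of myeloid cells, had the widest margin. It read -2.25, -2.94 and -2.24 with R882H, against -0.69, -1.04 and -0.66 with empty vector and -1.02, -0.68 and 0.27 with wild-type DNMT3A. The groups were 1.20 log2 units apart, and wild-type replicate 3 was the highest array. The difference was -1.84 ± 0.24, 3.58-fold, with a limma p of 6.43e-05 and an adjusted p of 0.146. Tyrobp, the signalling adaptor DAP12 of myeloid and NK receptors, read 4.13, 4.11 and 4.44 with R882H, against 5.05, 4.73 and 5.42 with empty vector and 4.79, 4.53 and 5.32 with wild-type DNMT3A. All R882H arrays were below all controls by at least 0.09 (difference -0.75 ± 0.14, limma adjusted p 0.155). Nkg7, a granule membrane protein, differed by -0.40 ± 0.13 and Pld4, a lysosomal nuclease, by -0.84 ± 0.13, with margins of 0.02 and 0.0049.

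The granulocyte and monocyte progenitor list, to which Tyrobp and Nkg7 belong, had these 2 of 24 tested members below all controls (8.33%, against 3.15% of all genes) and 0 above. On balance 20 of 24 were lower and the median was -0.66. Mpo, the peroxidase of azurophil granules, read 5.91, 6.08 and 6.92 with R882H, against 7.09, 6.56 and 7.93 with empty vector and 6.79, 7.19 and 7.68 with wild-type DNMT3A. R882H replicate 3 lay within the control range and the other 2 R882H arrays below it (difference -0.90 ± 0.17, limma adjusted p 0.168). Spi1, which encodes the myeloid factor PU.1, overlapped the controls in the same way at -0.60 ± 0.14. Cebpa, a driver of granulocyte fate, had only R882H replicate 2 below all controls, at -0.58 ± 0.21. The progenitor score was -0.67, -0.70 and 0.13 with R882H, against 0.17, -0.42 and 0.97 with empty vector and -0.20, -0.09 and 0.80 with wild-type DNMT3A. Replicate 3 had the highest score in each group. Mature neutrophil genes, the cells that follow these progenitors, had 8 of 8 tested members lower, a median of -0.78 and 0 outside the range. Their scores were 1.92 on empty vector replicate 3 and 1.13 on wild-type replicate 3, against -0.06 or lower on the other 7 arrays, and their part in the result was not tested. Without number 3 in any group the mature neutrophil median was -0.06, and that of the granulocyte and monocyte progenitor list was -0.63.

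**Figure D3:**
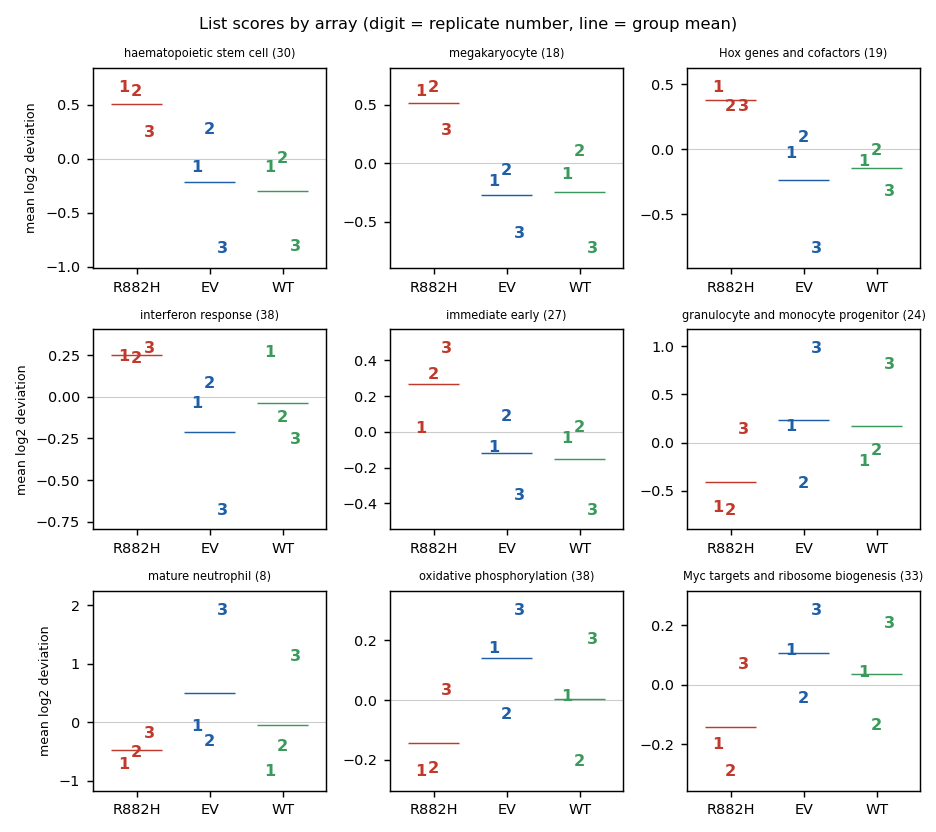
Score of 9 gene lists on each array, as the mean log2 deviation of the tested members from their mean over the arrays; digits are replicate numbers and lines group means. R882H scores stood above all controls for the megakaryocyte and Hox lists, for Hox only while members detected through R882H alone were counted, and replicate 3 of each control group was lowest for the stem cell list and highest for the mature neutrophil list.

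Other genes led the lower side by p. Gria3, a subunit of AMPA glutamate receptors, had the smallest p of all 12844 genes. It read -1.22, -1.68 and -1.0 with R882H, against -0.14, -0.55 and 0.76 with empty vector and 0.12, -0.57 and 0.60 with wild-type DNMT3A. Replicate 2 was the lowest and replicate 3 the highest of each group, and the R882H arrays were 0.43 log2 units below the nearest control (difference -1.34 ± 0.15, limma p 1.76e-05, adjusted p 0.146). Ak4, a mitochondrial adenylate kinase of the hypoxia response, read 1.07, 0.76 and 0.87 with R882H, against 1.70, 2.21 and 2.33 with empty vector and 2.24, 2.17 and 2.53 with wild-type DNMT3A. Its gap was 0.63 and its difference -1.29 ± 0.18. For Gria3 and for Ak4, 1 of 2 detected probes lay outside the range. Perp, a p53 target at desmosomes, differed by -1.46 ± 0.33 and the NK receptor gene Klrb1f by -1.08 ± 0.22, with gaps of 0.50 and 0.43. Arhgef10l, a guanine nucleotide exchange factor, stood at -1.18 ± 0.18 and Tbc1d7, a subunit of the TSC complex that restrains mTOR, at -0.95 ± 0.16. Supt7l, of a histone acetyltransferase complex, stood at -1.0 ± 0.15 with 1 of 3 R882H arrays well above background.

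Genes of the endoplasmic reticulum and the secretory pathway recurred among the 12 lower genes of smallest p. Pdia6, a disulphide isomerase of that compartment, read 2.99, 2.99 and 3.66 with R882H, against 3.78, 3.66 and 4.46 with empty vector and 3.99, 3.81 and 4.34 with wild-type DNMT3A. R882H replicate 3 came within 0.0030 of empty vector replicate 2, and the other 2 R882H arrays were clear of all controls (difference -0.79 ± 0.12, limma adjusted p 0.146). Fkbp11, a peptidyl-prolyl isomerase there, differed by -0.98 ± 0.15, Ckap4, a protein of its membrane sheets, by -0.81 ± 0.13, and Svip, an inhibitor of its degradation pathway, by -0.82 ± 0.13. Tmed3, a cargo receptor of transport vesicles, read 2.56, 2.59 and 3.03 with R882H, against 3.29, 3.19 and 4.12 with empty vector and 3.37, 3.23 and 3.80 with wild-type DNMT3A. In all 5 of these genes the R882H arrays lay below all controls, for Pdia6 by 1 of 2 detected probes, and adjusted p-values from limma were 0.146.

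The upstream sequence of a pair of leading genes in each direction is shown because DNMT3A acts on CG pairs. The windows are the 250 bases before the gene's start in the RefSeq promoter table of GRCm38.p6, read 5′ to 3′ along the gene's strand, with CG pairs in capitals. Mmrn1 lies at chr6:60944067-60944316 on the plus strand, Ehd3 at chr17:73804591-73804840 on the plus strand, Ccl6 at chr11:83593088-83593337 on the minus strand and Pdia6 at chr12:17266339-17266588 on the plus strand.
Mmrn1: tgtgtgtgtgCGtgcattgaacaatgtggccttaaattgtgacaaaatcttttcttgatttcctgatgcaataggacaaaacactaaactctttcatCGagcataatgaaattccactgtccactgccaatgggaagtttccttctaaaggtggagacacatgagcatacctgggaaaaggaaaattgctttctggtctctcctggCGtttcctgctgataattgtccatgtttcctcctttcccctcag
Ehd3: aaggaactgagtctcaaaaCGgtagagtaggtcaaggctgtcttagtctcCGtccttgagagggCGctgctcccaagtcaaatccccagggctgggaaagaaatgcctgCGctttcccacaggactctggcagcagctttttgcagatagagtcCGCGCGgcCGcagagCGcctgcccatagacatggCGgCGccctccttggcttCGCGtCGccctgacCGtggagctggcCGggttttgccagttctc
Ccl6: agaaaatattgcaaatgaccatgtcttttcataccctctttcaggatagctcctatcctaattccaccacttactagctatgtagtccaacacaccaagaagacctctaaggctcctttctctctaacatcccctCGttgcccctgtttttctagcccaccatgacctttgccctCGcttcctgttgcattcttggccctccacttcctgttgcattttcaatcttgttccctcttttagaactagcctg
Pdia6: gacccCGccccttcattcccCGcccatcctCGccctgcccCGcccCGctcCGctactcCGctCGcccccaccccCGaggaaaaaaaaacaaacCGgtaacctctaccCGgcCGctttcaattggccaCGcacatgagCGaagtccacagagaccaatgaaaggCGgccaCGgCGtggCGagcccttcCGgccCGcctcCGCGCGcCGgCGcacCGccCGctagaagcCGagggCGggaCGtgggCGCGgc
The windows of Mmrn1 and Ccl6 held 3 and 2 CG pairs and those of Ehd3 and Pdia6 held 16 and 32. The median was 15 over the 10288 tested genes with a window and 18 over the 326 genes below all controls with one. Over all genes it rose with signal, from 10 in the dimmest of 5 bins to 17 in the brightest. The brightest bin held 149 of the lower genes with a window, with a median of 20. The part of signal in the difference was not tested. The median of the higher genes is not reported here, because 271 of 347 (78.1%) had a window, under the 80% set for such a value. No methylation was measured here.

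Growth, division and respiration genes were lower by small amounts. All 38 tested subunit genes of oxidative phosphorylation were lower, with a median of -0.22. At an unadjusted limma p under 0.05 stood 4 of the 38, and 7.03% of all genes on the lower side. Uqcrb and Uqcrfs1 of complex III lay below all controls at -0.25 ± 0.12 and -0.24 ± 0.11. These 2 made 5.26% of the list, against 3.15% of all genes. After quantile scaling 0 members lay outside the range and the median was -0.14. Of 33 Myc target and ribosome biogenesis genes 30 were lower (median -0.21), and the chaperonin gene Hspd1, the snoRNP gene Gar1 and the helicase gene Ddx21 lay below all controls at -0.34 ± 0.11, -0.27 ± 0.11 and -0.21 ± 0.12. Of 46 DNA replication genes 42 were lower (median -0.16), and the 4 below all controls (8.70%, against 3.15% of all genes) were Orc1 (-0.46 ± 0.12), Mcm4 (-0.33 ± 0.11), Rrm2 (-0.41 ± 0.15) and Fen1 (-0.41 ± 0.15). Mcm4, of the replicative helicase, read 5.67, 5.60 and 5.75 with R882H, against 5.96, 6.04 and 6.02 with empty vector and 6.09, 6.00 and 5.90 with wild-type DNMT3A, a small but complete separation of 0.14. Mitosis genes had 29 of 34 lower (median -0.19), with Ccnb1, cyclin B1, alone below all controls at -0.45 ± 0.14, while its partner Cdk1 overlapped at -0.13 ± 0.18. The median signals of these lists lay between 1.52 and 4.16, against 0.31 for all genes. In the brightest of 5 bins of signal, 179 of 2569 genes lay below all controls. After cyclic loess, a scaling that depends on signal, 37 of 38 oxidative phosphorylation and 27 of 33 Myc target and ribosome biogenesis genes were lower. So were 37 of 46 DNA replication and 28 of 34 mitosis genes. With the deposited value table as named, the counts of lower genes in these lists, in the same order, were 19, 18, 31 and 14. The part of signal in these results was not tested. By array, the scores of each of these lists overlapped between R882H and controls. The oxidative phosphorylation score was -0.24, -0.23 and 0.03 with R882H, and ran from -0.20 to 0.30 among controls.

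Interferon and immediate early genes were higher. Isg15, a ubiquitin-like antiviral protein, Gbp2 and Igtp, both interferon-induced GTPases, were the 3 of 38 tested interferon response genes (7.89%, against 2.70% of all genes) above all controls, at 0.61 ± 0.15, 0.89 ± 0.27 and 0.49 ± 0.21. In all 32 of 38 were higher, with a median of 0.35. Taken by replicate number, the interferon median was 0.10 for number 1, 0.15 for number 2 and 0.72 for number 3. Wild-type replicate 1 (0.26) scored within the R882H range of 0.23 to 0.29, and empty vector replicate 3 was the lowest array at -0.68. Btg2, an antiproliferative transcript, read 0.78, 0.89 and 1.09 with R882H, against -0.08, 0.42 and -0.49 with empty vector and 0.55, 0.54 and -0.05 with wild-type DNMT3A. With Egr1 (0.82 ± 0.30), a transcription factor of quiescent stem cells, and Ier3 (0.48 ± 0.18) it made 3 of 27 immediate early genes (11.1%, against 2.70% of all genes) above all controls, and 24 of 27 were higher with a median of 0.39. Their scores were 0.02, 0.32 and 0.47 with R882H, of which the first lay within the control range of -0.44 to 0.08. Without number 3 in any group the immediate early median was 0.16.

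**Figure D4:**
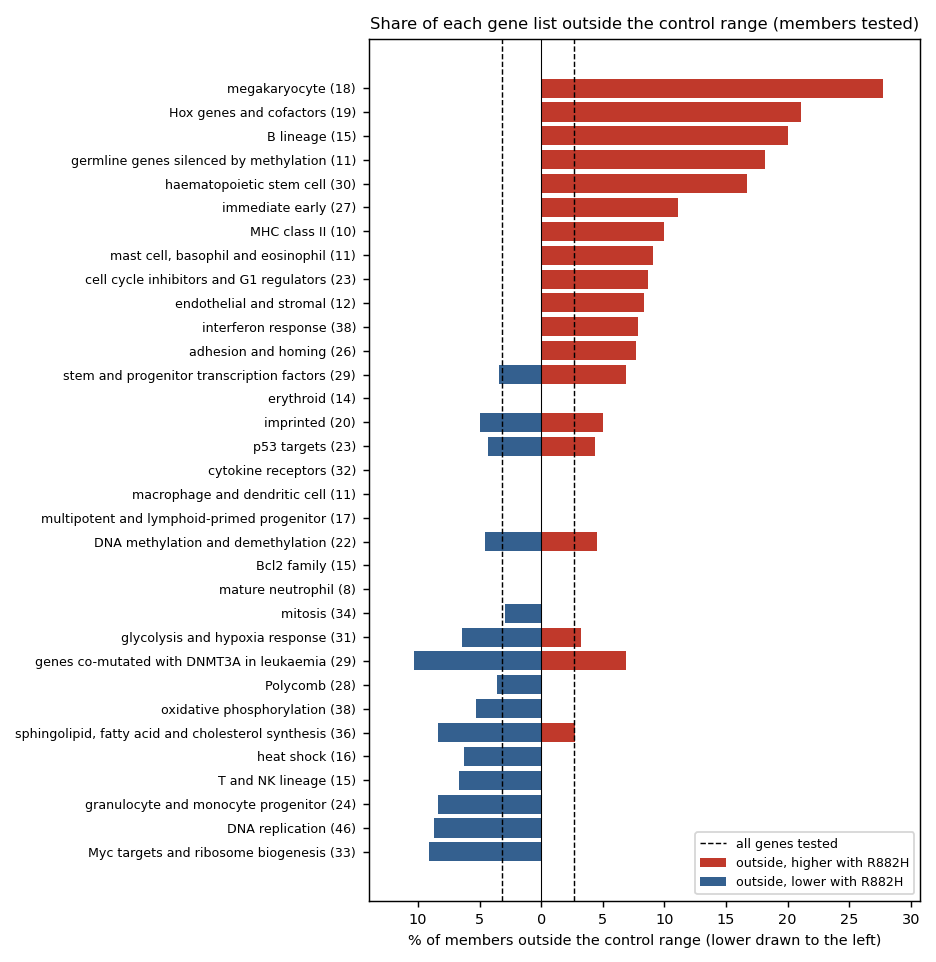
Share of the tested members of each of 33 gene lists with R882H above (red, to the right) or below (blue, to the left) all 6 controls, in percent, with the number tested in brackets. Dashed lines are the shares among all genes tested, 2.70% above and 3.15% below; the megakaryocyte list reached 27.8% above, or 3 of 14 among members detected on all 9 arrays.

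The remaining lists held fewer members outside the range. Of all genes, 2.70% lay above all controls and 3.15% below, and counts this small are a description only. Among stem and progenitor transcription factors, 2 were above, Gata2 among them, and Myb below (-0.24 ± 0.14) of 29 tested, with a median of 0.06. Cell cycle inhibitors had Btg2 and Cdkn2d, a CDK4 and CDK6 inhibitor (0.41 ± 0.13), above of 23, with a median of 0.10. Adhesion and homing genes had Itgb3 and Icam1 (0.58 ± 0.25) above of 26, with a median of -0.02. Genes co-mutated with DNMT3A in leukaemia had 2 above, Gata2 and Jak2 (0.28 ± 0.13), and 3 below, Idh2 (-0.36 ± 0.11), Cbl (-0.38 ± 0.14) and Ppm1d (-0.46 ± 0.20), of 29. Sphingolipid, fatty acid and cholesterol synthesis had Srebf1 above (0.36 ± 0.13) and Sptlc2 (-0.58 ± 0.16), Hmgcs1 (-0.40 ± 0.13) and Idi1 (-0.24 ± 0.13) below of 36. Glycolysis and hypoxia response had Slc2a3, the glucose transporter GLUT3, above (0.58 ± 0.14) and Ak4 and Pgk1 (-0.37 ± 0.12) below of 31.

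Among lists tied to DNA methylation, imprinted genes (given above) were mostly higher, with 15 of 20, or 11 of the 16 detected on all 9 arrays. The other lists differed from one another in direction. Of all genes, 2.70% lay above all controls and 3.15% below. In the methylation and demethylation list Gadd45g lay above (0.81 ± 0.20) and Idh2 below of 22 tested, 11 being higher and 11 lower. Germline genes silenced by methylation had Piwil1 (1.30 ± 0.32, with 1 control array well above background) and Dppa4 (0.12 ± 0.11) above of 11 tested, 7 being higher and 4 lower. Polycomb genes were mostly lower, with 19 of 28 and a median of -0.16, and Rbbp7 lay below all controls (-0.34 ± 0.17). The mouse Dnmt3a probe read 1.67, 1.44 and 1.08 with R882H, against 1.14, 1.44 and 0.51 with empty vector and 1.41, 1.80 and 0.45 with wild-type DNMT3A. These values overlapped (0.27 ± 0.18, limma adjusted p 0.529). The sources do not say where the probe lies relative to the added gene, so its level is no check of the labels. Dnmt1, the maintenance enzyme, stood at 0.04 ± 0.16, a sign that turned in several settings, and Dnmt3b, the other de novo enzyme, at -0.13 ± 0.18 with 1 of 3 probes on the other side of 0.

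Lists of other cell types had few or no members outside the range, where 2.70% of all genes lay above all controls and 3.15% below. Col1a2, a collagen chain, was 1 of 12 tested endothelial and stromal genes above all controls (1.1 ± 0.32). Gata2 was 1 of 11 mast cell, basophil and eosinophil genes above, and Nkg7 1 of 15 T and NK lineage genes below. MHC class II had its activator Ciita above (0.22 ± 0.12) of 10, p53 targets had Btg2 above and Perp below of 23, and heat shock had Hspd1 below of 16. Macrophage and dendritic cell (11 tested), multipotent and lymphoid-primed progenitor (17), Bcl2 family (15) and cytokine receptor genes (32) had 0 in either direction. Among the progenitor markers Flt3 stood at 0.13 ± 0.22, and among regulators of self-renewal and chromatin Bmi1 stood at -0.24 ± 0.14, Ezh2 at -0.16 ± 0.21 and the CDK inhibitor Cdkn1a at 0.58 ± 0.37, all overlapping the controls.

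Differences from each control group are given for the leading genes, whose direction the rule fixed. Over the 7 of 12 higher genes of smallest p that were detected on all 9 arrays, R882H minus empty vector ran from 0.77 to 1.30 and R882H minus wild-type DNMT3A from 0.75 to 1.55, while wild-type DNMT3A minus empty vector ran from -0.33 to 0.41. Over the 11 of 12 lower genes so detected the first ran from -1.68 to -0.73, the second from -2.0 to -0.74 and the third from -0.07 to 0.33. The first 2 comparisons share the R882H arrays, so they are given side by side only. Some other named genes had control groups further apart, with wild-type DNMT3A minus empty vector at -1.06 for Vwf and 1.05 for Rag1, each detected on 5 of 6 control arrays, and -1.32 for Gimap4. On slide 2, the only one with both pools, these 7 higher genes differed by 0.84 to 2.07 and the 11 lower ones by -2.39 to -0.93. With normexp background correction they differed by 0.46 to 0.98 and by -1.21 to -0.38. Of 25 named genes with several detected probes Dnmt3b alone had a probe of opposite sign, and of the 20 that lay outside the range Rab27b and Itgb3 did so with every probe.

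Probes without a gene symbol were examined apart. Of 13647 that passed the filter, 417 (3.06%) lay above all controls and 158 (1.16%) below, a different split from that of the named genes.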

How the data were processed

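The deposited scanner output of 9 single-colour Agilent mouse arrays was used. Its intensity values are processed Cy3 signals, background-subtracted by Feature Extraction 10.10.1.1, per the file headers, which name build mm9. A deposited value table on a log2 scale, whose normalization the labels do not state, served only as an alternative. Setting its columns against the scanner values showed that 7 of 9 matched the scanner output labelled as another sample.

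Control and outlier spots were left out, spots of a probe were averaged, and log2 intensity minus the array's 75th percentile was taken. Of 55681 probes, 30304 were well above background on all 3 R882H or all 6 control arrays, 16657 of them with a symbol. The brightest probe stood for each gene. limma 3.58.1 in R 4.3.3 fitted R882H minus the pooled controls with the replicate number as a block, and p-values were adjusted over 12844 genes by the Benjamini-Hochberg method (residual df 5, prior df 2.96). Deviations of same-numbered samples correlated at 0.108, 0.223 and 0.327 for numbers 1, 2 and 3 (R882H with the mean of both controls). The labels give the numbers, and what they stand for is not stated.

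Named genes were the 12 of smallest p and the 5 of widest gap in each direction among those outside the range, up to 4 per list by p, and a panel of 20 genes; clone and model names and olfactory and vomeronasal receptors were left out. Some genes that meet this rule are not reported here. Jak2, Plgrkt, Mob3c, Slc6a2, Ran, Ccdc78 and Alg6 are named beyond that rule, after their values were seen. Members and the 33 lists were chosen with earlier results of these data known. The alternatives were other blocks, background correction (normexp with offset 50 on median signals, since no mean signal column is present), scalings, filters, probe rules, controls, and leaving out each array. Summaries over genes detected on all 9 arrays were in part added after seeing the data. The fit was tested on simulated data. Promoter windows come from RefSeq, build GRCm38.p6. Python 3.11.15 drew the figures.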

Additional observations from a re-analysis of the deposited data

Results flagged for a closer look

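In 7 of 131 sets of 6 control values, 1 array stood apart from the others by Dixon's criterion; chance flags about 1 in 20 such groups. Slc2a3, the glucose transporter GLUT3, read 2.18 on empty vector replicate 2, with the next control at 1.76. Ccl6, the myeloid chemokine, read 0.27 on wild-type replicate 3, with the next at -0.66. Myb, a progenitor transcription factor, read 5.25 on wild-type replicate 2, with the next at 4.93. On the same array 64.8% of probes were well above background, with the next control at 57.6%, and its DNA replication score was -0.0452, with the next at 0.0621. The erythroid score was 0.746 on empty vector replicate 1, with the next at -0.25. The cytokine receptor score was -0.359 on empty vector replicate 3, with the next at -0.0354.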

How the results depend on the processing

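No gene passed an adjusted p of 0.05 with limma under any setting run; the smallest adjusted p among named genes, 0.05004 with normexp, was shared by 6 of them. The count at an unadjusted p under 0.05 was 1652; it was 888 with slide as a block, 970 within the shared slide, 3251 over all probes, 389 with the deposited value table as named, and 1034 (without R882H replicate 1) to 1737 with 1 array left out. Without the replicate block it was 1281, with a smallest adjusted p of 0.162 and the same 752 genes outside the range, which the block does not enter. The count outside the range was 5119 within the shared slide, 1512 over all probes, 2867 without number 3 in any group, 2374 against empty vector, 1984 against wild-type DNMT3A, 207 with the value table, and 891 (without empty vector replicate 3) to 2064 (without R882H replicate 3) with 1 array left out; fewer arrays widen what can lie outside. It was 1194 without R882H replicate 1, 1153 without R882H replicate 2 and 1203 without wild-type replicate 2.

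Some differences turned sign, and the cause was not tested; the value table assigns 7 of 9 arrays to other samples than the scanner labels do. With that table Kit was at -0.02452, Dnmt1 at -0.029, Dzip1 at -0.03347, Ier3 at -0.0447, Vwf at -0.1656, Icam1 at -0.2183, Meis1 at -0.2395, Flt3 at -0.2595, Dnmt3a at -0.343, Fkbp11 at 0.009367, Ccnb1 at 0.08651 and Cdk1 at 0.08684. With the array median Dppa4 was at -0.01331 and Dnmt1 at -0.09111. Against empty vector Dnmt1 was at -0.1375, Dnmt3b at 0.06524 and Ezh2 at 0.09996. Dnmt3b was at 0.138 with slide as a block and within the shared slide, and Dnmt1 at -0.008922 with array weights. Without number 3 in any group Dnmt1 was at -0.03652 and Flt3 at -0.1396. With 1 array left out Dnmt1 ran from -0.03652 to 0.1126, Flt3 from -0.1396 to 0.2807 and Hoxa9 from -0.03982 to 0.5397.

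Signals near background limit the dim genes: 12 of the higher genes have only a bound. R882H replicate 3 is alone on its slide, so its slide and sample cannot be told apart. The groups hold 3 arrays each.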

Other observations

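Genes of the secretory pathway were set out in 4 further lists, chosen after values of Pdia6, Fkbp11 and Tmed3 had been seen, so their counts are a description. Of the 99 members of all 4 secretory lists, 97 were lower with R882H, 16 lay below all 6 controls and 0 above. Of all genes tested, 3.15% lay below and 2.70% above. Pdia6, Fkbp11 and Tmed3, which prompted the lists, are among the 16. The median difference was -0.32, against -0.013 for all genes tested. Canx, the membrane chaperone calnexin, read 5.31, 5.30 and 5.38 with R882H, against 5.74, 5.82 and 5.99 with empty vector and 5.92, 6.07 and 5.83 with wild-type DNMT3A. The R882H arrays lay 0.36 log2 units below the nearest control. Ssr1, a subunit of the translocon, read 3.68, 3.60 and 3.74 with R882H, against 4.0, 4.04 and 4.52 with empty vector and 4.01, 4.11 and 4.33 with wild-type DNMT3A, and was likewise clear of all controls. Their limma adjusted p-values were 0.23 and 0.244.

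By list, endoplasmic reticulum folding had 31 of 32 members lower and 9 below all controls, among them Pdia6, Canx and the glucosyltransferase gene Uggt1 (-0.72 ± 0.17). Signal peptidase and translocon genes had 22 of 22 lower and 4 below all controls: Spcs2 (-0.56 ± 0.11), Spcs3 (-0.53 ± 0.12), Sec61a1 (-0.44 ± 0.12) and Ssr1. Oligosaccharyltransferase genes had 12 of 12 lower and Stt3a, its catalytic subunit, below all controls (-0.42 ± 0.12). Vesicle transport genes had 32 of 33 lower, with the cargo receptors Tmed2 (-0.37 ± 0.12) and Tmed3 below all controls. The share of all genes below all controls was 3.15%. For all 4 secretory lists the median ran from -0.29 after cyclic loess to -0.45 with the array median among the scalings, 88 of 99 members were lower without number 3 in any group, and 62 of 99 were lower with the deposited value table as named. The median signal of these 99 genes was 2.91, against 0.31 for all genes, and its part in the result was not tested.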
